A study of Mus musculus with 6 samples.

Results

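The genes described here are 40 genes of the major histocompatibility complex (MHC) and of antigen presentation, out of 46078 gene rows counted in RNA of the mouse colon epithelial fraction. They were set as a list of gene names by function, with no threshold on a measured value, and all 40 were found, 38 by symbol in the authors' deposited comparison and 2 (H2-Oa and H2-M2) by symbol in the GENCODE M21 annotation. By role they fall into 10 class II genes, 3 classical class I genes (B2m, the shared light chain, counted with them), 15 nonclassical class I genes and 12 genes of peptide supply and class I loading. A filter on low counts left 39 of the 40 for testing, all but H2-M2.

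The study sequenced total RNA of the epithelial fraction of the colon from mice aged 2 months kept without challenge, in 3 libraries labelled wild type and 3 labelled Lingo2-/-, called mutant below. Lingo2 encodes a membrane protein with leucine-rich repeats and an immunoglobulin domain, and the comparison asks which transcripts differ when it is lost. The fraction is what an EDTA and DTT wash releases from the tissue, and markers of immune cells were detected in it. Lingo2 itself had 0, 7 and 0 reads in the wild type and 1, 1 and 0 in the mutant libraries, too few to check the genotype labels. The labels used here name neither the strain, the sex, the allele nor the number of animals behind a library. A p-value therefore measures how far these libraries spread, and that spread may be technical.

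Class I molecules are carried by nearly all nucleated cells and show peptides from the cytosol to CD8 T cells. Proteasomes cut the peptides, the TAP transporter brings them into the endoplasmic reticulum, and tapasin and other chaperones load them on the heavy chain bound to beta-2-microglobulin. Nonclassical class I molecules are less variable and serve more specialised receptors, among them the thymus leukemia antigen H2-T3, which binds the CD8 alpha-alpha dimer found on many lymphocytes that lie within the gut epithelium. Class II molecules show peptides from endosomes to CD4 T cells, are carried by dendritic cells, macrophages and B cells, and can be induced in gut epithelium by interferon gamma through the master regulator Ciita.

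Of the 40 genes, 28 lie on chromosome 17 between 33915899 and 37483552 (GRCm38), the span of the mouse MHC, and 12 on other chromosomes. RefSeq promoter sequences (GRCm38.p6, 250 bases before to 50 after a start) were at hand for 30 of the 40 genes. The stretches below are the 150 bases just before the RefSeq start of 7 of them, 5′ to 3′ on the gene's strand. They were chosen because they hold elements of the kind through which Ciita, Nlrc5 and interferon act on such genes. Gene positions given elsewhere are from GENCODE M21, whose starts can differ. For H2-Oa, H2-Q2 and H2-T23 some or all of the stretch lies within the GENCODE gene. The first set is class II, where capitals mark the core AGCAAC of the X box and the Y box (CCAAT, or ATTGG on the other strand).
H2-Oa, chr17:34092229-34092378, plus strand: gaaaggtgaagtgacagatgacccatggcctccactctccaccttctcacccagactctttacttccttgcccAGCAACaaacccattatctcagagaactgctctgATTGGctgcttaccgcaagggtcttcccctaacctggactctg
H2-Ob, chr17:34238755-34238904, plus strand: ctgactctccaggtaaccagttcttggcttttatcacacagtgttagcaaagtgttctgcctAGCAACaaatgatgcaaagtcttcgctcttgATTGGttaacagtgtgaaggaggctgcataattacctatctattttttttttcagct
H2-Eb1, chr17:34305717-34305866, plus strand: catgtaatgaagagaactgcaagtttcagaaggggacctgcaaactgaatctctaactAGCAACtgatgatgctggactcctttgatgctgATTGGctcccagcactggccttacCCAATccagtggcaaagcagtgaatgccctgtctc
In these 3 genes the Y box began 34, 31 and 33 bases after the start of the X box core, in that order. Of the 8 class II promoters at hand, from 7 genes, only these 3 held the exact letters of the X box core.

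The second set is class I, with the same capitals for the Y box, and in B2m and H2-T23 also for the interferon-stimulated response element, searched on both strands as GAAA, 2 bases of any kind and GAAA. H2-Q2 is shown as a gene that was lower in the mutant libraries and H2-Q4 as the next Q gene along the chromosome in the list, which was not called.
H2-Q2, chr17:35342157-35342306, plus strand: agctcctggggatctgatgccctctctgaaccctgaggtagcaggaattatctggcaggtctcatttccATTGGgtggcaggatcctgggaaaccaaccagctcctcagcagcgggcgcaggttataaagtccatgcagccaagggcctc
H2-Q4, chr17:35379467-35379616, plus strand: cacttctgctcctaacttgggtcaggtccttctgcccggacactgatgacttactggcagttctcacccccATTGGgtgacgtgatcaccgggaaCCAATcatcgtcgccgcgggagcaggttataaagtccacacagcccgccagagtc
B2m, chr2:122147537-122147686, plus strand: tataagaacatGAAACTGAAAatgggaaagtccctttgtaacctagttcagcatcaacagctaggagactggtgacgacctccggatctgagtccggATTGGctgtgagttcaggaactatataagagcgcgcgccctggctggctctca
H2-T23, chr17:36032702-36032851, minus strand: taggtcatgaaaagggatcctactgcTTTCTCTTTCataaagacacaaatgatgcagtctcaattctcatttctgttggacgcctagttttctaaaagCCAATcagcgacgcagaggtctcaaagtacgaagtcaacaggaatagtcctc
In the stretches shown H2-Q4 held the Y box letters at 2 places, facing opposite ways, and H2-Q2 at 1. Whether each such place is a Y box was not tested. The search for the response element allowed no mismatch, so looser forms of it were not counted. Over the 32 promoters of the 30 genes, the Y box letters stood in 25 (78.1%, against 37.4% of all 32851 promoters in the table), the X box core in 7 (21.9% against 14.8%), the response element in 4 (12.5% against 3.44%) and the interferon gamma activated site, searched as TTCNNNGAA, in 3 (9.38% against 8.30%). No motif found overlapped another in the 7 promoters shown. Such matches describe letters in these windows and are neither sites shown to be bound nor a cause of any value below.

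Levels are given in CPM, read counts scaled to the effective library size, and fold changes as log2 of mutant over wild type with their standard error. Gene read totals ran from 25010618 to 28029583 for wild type and from 7060769 to 13047682 for mutant libraries, so the floor that 3 reads set was 0.112 to 0.138 CPM and 0.207 to 0.374 CPM. Mitochondrial genes took 45.3% to 48.4% of the wild type reads and 35.7% to 39.8% of the mutant reads. Entries on no feature made up 18.5% to 22.1% of a wild type and 23.6% to 27.6% of a mutant library, while reads with several alignments were at 36.5% to 36.9% in wild type against 30.8% to 33.9%, so the genotypes did not overlap in either. Their part in the values of class I genes with shared sequence was not tested. The test was edgeR's quasi-likelihood F test over 16757 genes with the Benjamini-Hochberg adjustment and a threshold of 0.05, by which 2.57% of all tested genes were called, 1.04% higher and 1.52% lower in the mutant libraries. Epithelial markers were high in every library (10 markers, summed 6421, 5417 and 6142 CPM in the wild type and 5802, 5593 and 6447 CPM in the mutant libraries), and none of the 10 was called. Of 11 markers of T cells and intraepithelial lymphocytes all 11 were lower in the mutant libraries, with sums of 303, 352 and 361 CPM in the wild type and 101, 88.9 and 78.1 CPM in the mutant libraries. In such bulk RNA fewer cells of a type and less RNA per cell cannot be told apart.

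The fraction carried mostly class I messages. Per kilobase of exon, B2m stood highest at 441 CPM per kilobase in wild type, before the heavy chains H2-K1 (248) and H2-D1 (206) and the chaperone calreticulin (108 for Calr). The nonclassical genes H2-Q2 (59.8) and H2-T23 (52.1) reached the level of the invariant chain Cd74 (52.3), the highest of the class II group, while H2-Aa, H2-Ab1 and H2-Eb1 lay between 11.1 and 14.9 CPM per kilobase. Lowest were Mr1 (0.335) and H2-M2 (0.122).

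Across the genotypes, 2 of the 39 tested genes were called and both were nonclassical class I genes lower in the mutant libraries, H2-Q1 and H2-Q2. No gene of the other groups passed, and no gene was called higher. Called genes made up 5.13% of the 39, beside 2.57% of all tested genes. The genotypes did not overlap in 11 of 39 genes (28.2%), 10 of them lower and 1 higher in the mutant libraries, against 24.1% of all tested genes (11.8% lower and 12.3% higher). An unadjusted p under 0.05 was reached by 13 of 39 (33.3%), against 18.6% of all tested genes. The median log2 fold change over the 39 was −0.13, beside 0.00098 over all tested genes.

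**Figure D1:**
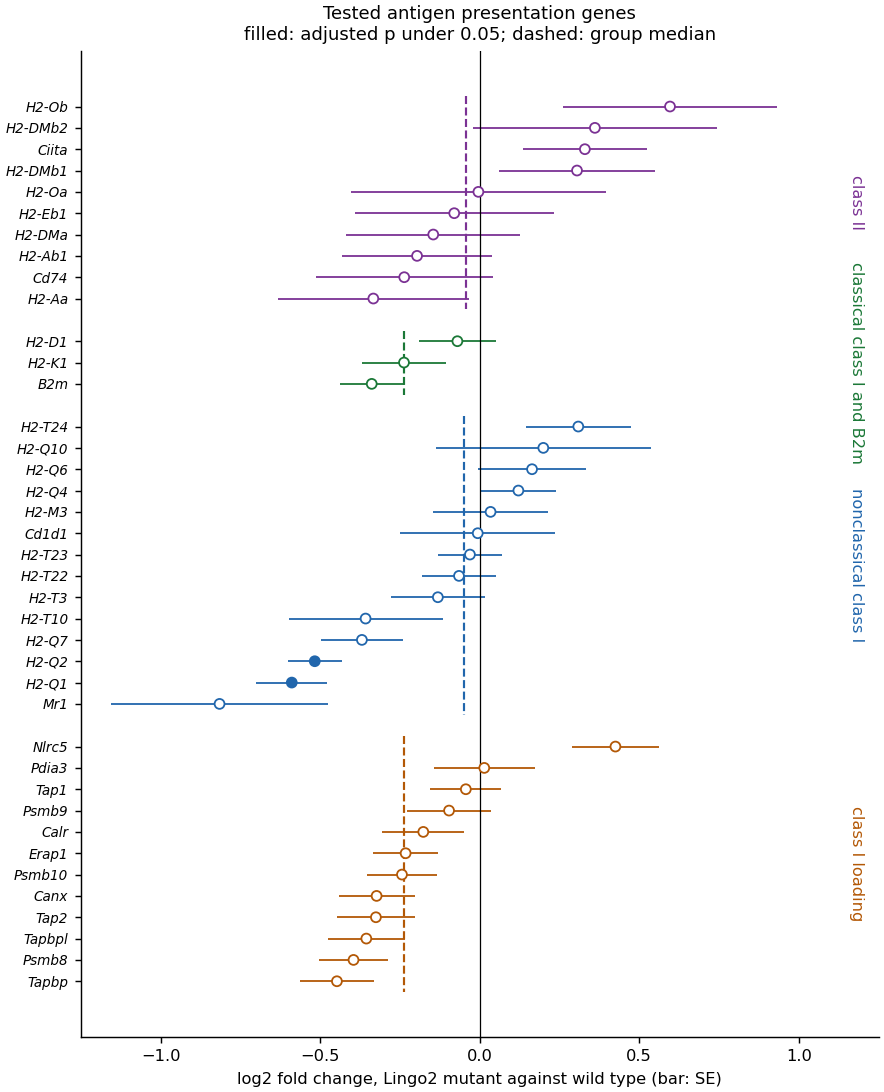
Log2 fold change of each of the 39 tested genes with its standard error, by group, mutant against wild type (3 libraries each); filled points passed an adjusted p of 0.05 and dashed lines are group medians. H2-Q1 and H2-Q2 are the 2 filled points, and 10 of the 12 loading genes lie to the left of 0 without passing.

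H2-Q1 and H2-Q2 are neighbours at the start of the Q region, beside H2-D1, and belong to the large family of Qa antigens. H2-Q1 (chromosome 17, 35320405 to 35325099, plus strand) had 52.2, 41.8 and 50.4 CPM in wild type replicates 1, 2 and 3 and 32.95, 34.3 and 28.7 CPM in mutant replicates 1, 2 and 3. Every mutant library lay below every wild type library (log2 fold change −0.59 ± 0.11, edgeR adjusted p = 0.0160). H2-Q2 (chromosome 17, 35342242 to 35346762, plus strand) had 134, 125 and 131 CPM in wild type replicates 1, 2 and 3 and 91.6, 92.4 and 89.2 CPM in mutant replicates 1, 2 and 3, with a narrow spread in each genotype and no overlap (log2 fold change −0.52 ± 0.08, edgeR adjusted p = 0.00802). The mean level of H2-Q1 was 48.2 ± 5.55 CPM in wild type against 31.97 ± 2.92 CPM in the mutant, and that of H2-Q2 was 130.3 ± 4.57 CPM in wild type against 91.1 ± 1.66 CPM in the mutant (mean ± SD, n = 3 a genotype, here and below). In the authors' deposited table the adjusted p was 0.00308 for H2-Q1 and 0.000258 for H2-Q2.

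Both calls depended on the mutant libraries kept. Without mutant replicate 3 neither passed (edgeR adjusted p = 0.0850 for H2-Q1 and 0.0504 for H2-Q2), and without mutant replicate 2 only H2-Q2 did (0.0526 for H2-Q1), although the fold changes stayed between −0.68 and −0.50 whichever library was left out. The 2 genes share sequence. Of all 50-base words in H2-Q1 transcripts 14.96% occur in transcripts of other genes, 9.05% in H2-Q2, and of those in H2-Q2 16.1%, 12.85% in H2-Q1. With their reads added together, a choice made after seeing the data, the log2 fold change was −0.54 ± 0.09 (edgeR adjusted p = 0.00995).

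**Figure D2:**
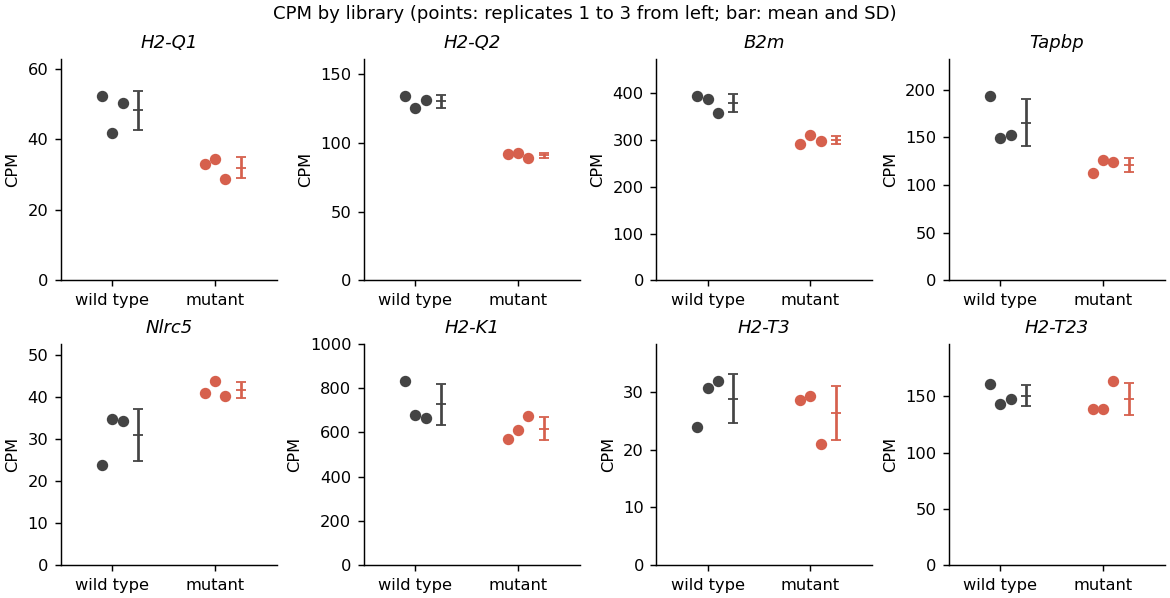
CPM of 8 genes in each library, points for replicates 1 to 3 from left to right, with the mean and SD beside them (n = 3 a genotype, axes from 0). For H2-Q1, H2-Q2, B2m and Tapbp all mutant libraries lie below all wild type libraries, for Nlrc5 above, and for H2-K1, H2-T3 and H2-T23 the genotypes overlap.

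Further along the Q region the values went both ways. H2-Q4, which encodes a secreted class I protein known as Qb-1, had 23.96, 31.7 and 27.9 CPM in the wild type and 28.2, 33.5 and 29.6 CPM in the mutant libraries, and the genotypes overlapped (log2 fold change 0.12 ± 0.12, edgeR adjusted p = 0.622). H2-Q6 and H2-Q7, which encode Qa-2 molecules, had log2 fold changes of 0.16 ± 0.17 and −0.37 ± 0.13. H2-Q7 did not overlap between genotypes, with 16.9, 22.04 and 16.99 CPM in the wild type and 14.8, 14.5 and 14.1 CPM in the mutant libraries, and did not pass (edgeR adjusted p = 0.149). Of the words of H2-Q6 35.0% occur in other genes, 13.95% in H2-Q7, and of those of H2-Q7 26.45%, most of them (14.03% of all its words) in H2-Q10. Summed, the reads of H2-Q6 and H2-Q7 gave a log2 fold change of −0.08 ± 0.13 (edgeR adjusted p = 0.789). Reads with several alignments stood in a summary line of their own (30.8% to 36.9% of a library's total), which these sums do not include. How many of those reads came from these relatives is not known. H2-Q10, a secreted molecule made mainly by liver, was low at 2.12, 4.81 and 2.94 CPM in the wild type and 2.76, 3.61 and 5.32 CPM in the mutant libraries, with overlapping genotypes (log2 fold change 0.20 ± 0.34, edgeR adjusted p = 0.792).

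Ligands of lymphocyte receptors in the T and M regions and outside the MHC showed no call. H2-T3 had 24.01, 30.7 and 32.03 CPM in wild type replicates 1, 2 and 3 and 28.7, 29.4 and 20.9 CPM in mutant replicates 1, 2 and 3. Both the lowest wild type value, in replicate 1, and the lowest value of all, in mutant replicate 3, lay apart from the others, and the genotypes overlapped (log2 fold change −0.13 ± 0.15, edgeR adjusted p = 0.669). The 95% interval of its log2 fold change ran from −0.45 to 0.19. The chain it binds, Cd8a, had 34.4, 43.03 and 38.2 CPM in the wild type and 16.5, 11.3 and 12.03 CPM in the mutant libraries and fell (log2 fold change −1.51 ± 0.15, edgeR adjusted p = 0.000332, interval −1.83 to −1.19), with no overlap. The difference between ligand and receptor was not tested.

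H2-T23 encodes Qa-1, the ligand of the inhibitory CD94-NKG2A receptor. It had 161, 143 and 148 CPM in the wild type and 139, 139 and 164 CPM in the mutant libraries, with overlapping genotypes (log2 fold change −0.03 ± 0.10, edgeR adjusted p = 0.9001, interval −0.25 to 0.19). The receptor chains Klrd1 (CD94) and Klrc1 (NKG2A) fell, by 1.46 ± 0.26 and 1.21 ± 0.25 on the log2 scale (edgeR adjusted p = 0.0282 and 0.0275). H2-T22 and H2-T10, ligands of a set of gamma-delta T cell receptors, had log2 fold changes of −0.07 ± 0.12 and −0.36 ± 0.24. H2-T22 had 38.6, 36.4 and 32.5 CPM in the wild type and 32.9, 29.9 and 40.03 CPM in the mutant libraries, with overlap. H2-T10 was low at 2.58, 3.99 and 2.85 CPM in the wild type and 2.55, 2.37 and 2.43 CPM in the mutant libraries, without overlap but by a very small margin (edgeR adjusted p = 0.457). Of their words 31.25% and 31.7% occur in the other gene, and summed they gave a log2 fold change of −0.09 ± 0.11 (edgeR adjusted p = 0.721). About 29.4% of the exonic bases of H2-T22 and 27.1% of those of H2-T10 overlap a gene on the other strand, and the strand setting of the counting is not given in the sources used here.

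The remaining nonclassical genes were low. H2-T24 had 7.41, 9.47 and 7.33 CPM in the wild type and 11.7, 8.85 and 9.14 CPM in the mutant libraries (log2 fold change 0.31 ± 0.16, edgeR adjusted p = 0.341), with overlap. H2-M3, which presents N-formylated bacterial peptides, had 5.95 ± 1.12 CPM in wild type against 6.10 ± 0.0325 CPM in the mutant (log2 fold change 0.03 ± 0.18, edgeR adjusted p = 0.942). Of the MHC-like molecules encoded elsewhere, Cd1d1, which presents lipids to natural killer T cells, had 2.67, 2.91 and 2.09 CPM in the wild type and 2.69, 1.99 and 2.89 CPM in the mutant libraries (log2 fold change −0.01 ± 0.24, edgeR adjusted p = 0.993). Mr1, which presents vitamin B metabolites to mucosal-associated invariant T cells, had 40, 72 and 35 reads in the wild type and 13, 13 and 9 reads in the mutant libraries. Its fold change was the most negative of the 39 but wide (log2 fold change −0.82 ± 0.34, edgeR adjusted p = 0.225), and mutant replicate 2 overlapped wild type replicate 3. H2-M2, too low to test, had 9, 3 and 1 reads in the wild type and 2, 2 and 4 reads in the mutant libraries. Of the 14 tested nonclassical genes 2 were lower and none higher by the test, with a group median log2 fold change of −0.05.

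**Figure D3:**
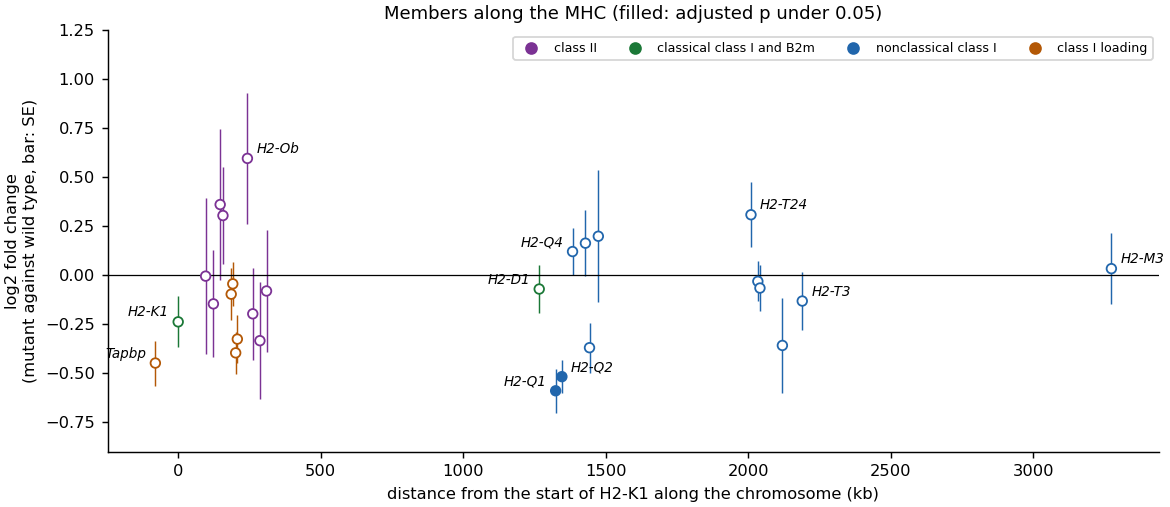
Log2 fold change with standard error of the 27 tested genes on chromosome 17 against distance in kilobases from the start of H2-K1; filled points passed an adjusted p of 0.05. The class II and loading genes lie within about 310 kilobases of H2-K1, and H2-Q1 and H2-Q2, side by side beyond H2-D1, are the only filled points.

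In the whole span from Tapbp to H2-M2, 7 of 146 tested genes were called (4.79%), H2-Q1 and H2-Q2 among them, beside 2.57% of all tested genes. The other 5, named here after their values were seen, were Neu1 and Ppp1r18, which were lower, and Notch4, Trim39 and the heat shock gene Hspa1a, which were higher. None of them lies between H2-Q1 and H2-Q10, and the 119 tested genes of the span outside the list had a median log2 fold change of −0.0092. Other MHC genes fixed by name, 12 matched of 21 listed, included 4 that could be tested and none was called. Among these H2-T-ps, a T region pseudogene, had 3.31, 3.51 and 3.28 CPM in the wild type and 2.48, 1.87 and 1.74 CPM in the mutant libraries, without overlap (log2 fold change −0.69 ± 0.23, edgeR adjusted p = 0.126), and H2-Q5 had a log2 fold change of 0.48 ± 0.25 (edgeR adjusted p = 0.323). H2-Ea-ps had 0, 1 and 0 reads in the wild type and 0, 0 and 1 in the mutant libraries. It is the inactive form, carried by C57BL/6 mice, of the gene for the alpha chain of the second class II molecule, and it was at or under the floor in both genotypes.

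None of the 3 classical class I genes passed the test, and their median log2 fold change was −0.24. Only B2m was separated between the genotypes. B2m (chromosome 2, 122147686 to 122153083), the light chain of every class I molecule, had 394, 387 and 357 CPM in wild type replicates 1, 2 and 3 and 293, 310.1 and 298 CPM in mutant replicates 1, 2 and 3. All 3 mutant values lay below the lowest wild type value. The log2 fold change of B2m was −0.34 ± 0.10 with an edgeR adjusted p = 0.101, whereas the authors' deposited table gives an adjusted p of 0.0356 and DESeq2 run on the same counts gave 0.0262. H2-K1 had 835, 680.4 and 668 CPM in the wild type and 569, 610.0 and 673 CPM in the mutant libraries, with mutant replicate 3 above wild type replicate 3 (log2 fold change −0.24 ± 0.13, edgeR adjusted p = 0.355). H2-D1 had 573, 537 and 485 CPM in the wild type and 465, 493 and 562 CPM in the mutant libraries, fully mixed between the genotypes (log2 fold change −0.07 ± 0.12, edgeR adjusted p = 0.794).

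Genes of peptide supply and loading had a median log2 fold change of −0.24 over 12 tested genes, 10 below 0 and 2 above, and none passed. An unadjusted p under 0.05 in edgeR's test was reached by 8 of the 12 (66.7%), against 18.6% of all tested genes. The genotypes did not overlap in 6 of the 12 (50%), 5 lower and 1 higher, against 24.1% of all tested genes. Tapbp encodes tapasin, which bridges the class I heavy chain to the TAP transporter. Its values were 193, 149 and 153 CPM in wild type replicates 1, 2 and 3 and 113, 126 and 125 CPM in mutant replicates 1, 2 and 3, with no overlap (log2 fold change −0.45 ± 0.11, edgeR adjusted p = 0.0606). Here too the tools parted, with adjusted p-values of 0.0276 in the authors' deposited table and 0.0229 by DESeq2. Of the exonic bases of Tapbp 24.9% overlap a gene on the other strand. Its relative Tapbpl, the peptide editor TAPBPR, had 23.9, 19.3 and 20.7 CPM in the wild type and 14.96, 16.95 and 18.3 CPM in the mutant libraries, again without overlap (log2 fold change −0.36 ± 0.12, edgeR adjusted p = 0.141).

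The transporter and immunoproteasome genes form a compact block on chromosome 17, and none of them passed. Tap1 and Psmb9, which start head to head and whose exons overlap by 212 bases, stood near 0, with log2 fold changes of −0.04 ± 0.11 and −0.10 ± 0.13. Psmb8 and Tap2, the next genes along, had log2 fold changes of −0.40 ± 0.11 and −0.33 ± 0.12 (edgeR adjusted p = 0.0783 and 0.179). Psmb8, an inducible catalytic subunit, had 21.2, 23.9 and 22.7 CPM in the wild type and 15.7, 17.4 and 18.7 CPM in the mutant libraries, and Tap2, the second chain of the transporter, 19.4, 20.8 and 17.3 CPM in the wild type and 13.4, 16.6 and 16.2 CPM in the mutant libraries. Neither overlapped between genotypes. Tap1, the first chain, had 34.4, 40.8 and 36.97 CPM in the wild type and 31.3, 39.9 and 38.2 CPM in the mutant libraries, with overlap. Of the exonic bases of Psmb8 14.7% and of those of Tap2 14.1% and 4.36% overlap genes on the other strand, as do 22.8% of those of H2-Oa, 19.1% of H2-Q4, 11.5% of Erap1 and 10.4% of H2-DMa. The third inducible subunit, Psmb10, encoded on chromosome 8, had 50.1 ± 1.49 CPM in wild type against 42.4 ± 6.62 CPM in the mutant (log2 fold change −0.24 ± 0.11, edgeR adjusted p = 0.264).

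Among the endoplasmic reticulum chaperones, calnexin (Canx) had 242 ± 33.7 CPM in wild type against 193 ± 14.7 CPM in the mutant (log2 fold change −0.32 ± 0.12, edgeR adjusted p = 0.173) and calreticulin (Calr) 312 ± 37.7 CPM in wild type against 276 ± 38.7 CPM in the mutant (log2 fold change −0.18 ± 0.13, edgeR adjusted p = 0.493). Pdia3, the oxidoreductase ERp57 of the loading complex, had 194, 167 and 139.7 CPM in the wild type and 139, 162 and 205 CPM in the mutant libraries. Its log2 fold change was 0.01 ± 0.16 and changed sign with the scaling, to −0.01 with upper quartile factors. Erap1, the aminopeptidase that trims peptides to length, had 58.8, 50.1 and 47.6 CPM in the wild type and 43.6, 42.5 and 47.1 CPM in the mutant libraries, without overlap but by a small margin (log2 fold change −0.23 ± 0.10, edgeR adjusted p = 0.244).

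Nlrc5, the transcriptional activator of class I genes and the counterpart of Ciita, was the one gene of the list that lay wholly higher in the mutant libraries. It had 23.9, 34.8 and 34.2 CPM in wild type replicates 1, 2 and 3 and 40.8, 43.9 and 40.3 CPM in mutant replicates 1, 2 and 3. Wild type replicate 1 was far below the other wild type libraries, and the call was not reached (log2 fold change 0.43 ± 0.14, edgeR adjusted p = 0.123, 0.107 in the authors' deposited table). Nlrc5 passed in 1 of the 15 alternatives, the fit with no filter on low counts (edgeR adjusted p = 0.00754), which called more genes in all. Without wild type replicate 1 the log2 fold change was 0.27. B2m, H2-K1 and Tap1, genes that Nlrc5 is known to activate, had fitted values below 0, and like Nlrc5 they did not pass edgeR's test with the filter on low counts. Tap1 lay near 0 and changed sign in 2 of the 15 alternatives. Of the 14 tested nonclassical class I genes 5 had fitted values above 0. The part of Nlrc5 in any of these values was not tested.

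**Figure D4:**
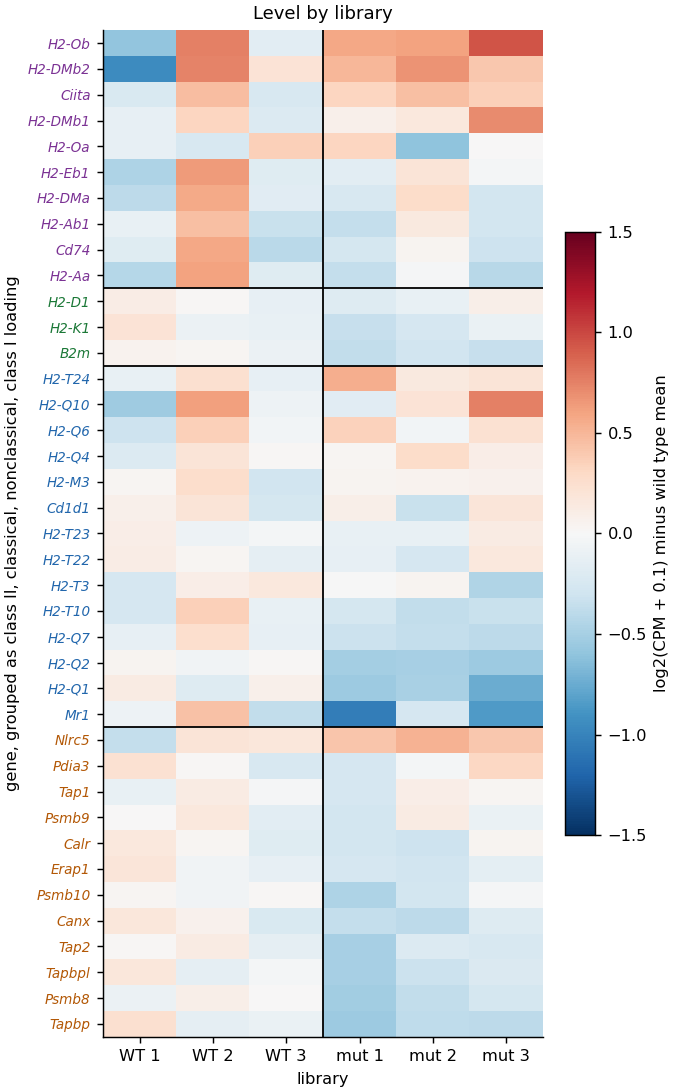
Each tested gene by library, as log2(CPM + 0.1) minus its wild type mean, with class II genes on top, then classical, nonclassical and loading genes. Most class II rows are darkest red in wild type replicate 2, while H2-Q1, H2-Q2 and most loading genes are blue in all 3 mutant libraries.

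Class II genes spread widely between wild type libraries. None of the 10 was called, none reached an unadjusted p under 0.05, and the group median log2 fold change was −0.04. Cd74, the invariant chain that guards the peptide groove, had 74.2, 126 and 63.5 CPM in wild type replicates 1, 2 and 3 and 70.3, 86.1 and 67.8 CPM in mutant replicates 1, 2 and 3, so wild type replicate 2 stood alone at the top (log2 fold change −0.24 ± 0.28, edgeR adjusted p = 0.697). The alpha chain gene H2-Aa had 29.99, 61.3 and 35.5 CPM in the wild type and 31.3, 39.8 and 30.1 CPM in the mutant libraries and its partner H2-Ab1 34.4, 50.9 and 29.5 CPM in the wild type and 28.96, 41.3 and 30.7 CPM in the mutant libraries, again with the peak in wild type replicate 2 (log2 fold changes −0.33 ± 0.30 and −0.20 ± 0.23, edgeR adjusted p = 0.607 and 0.699). H2-Eb1, the beta chain of the second class II molecule, had 18.3, 39.3 and 22.2 CPM in the wild type and 22.6, 28.8 and 24.8 CPM in the mutant libraries (log2 fold change −0.08 ± 0.31).

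The peptide exchange genes H2-DMa, H2-DMb1 and H2-DMb2, with mean wild type levels of 5.88, 3.05 and 4.07 CPM, had log2 fold changes of −0.15 ± 0.27, 0.30 ± 0.25 and 0.36 ± 0.38. Of the words of the DM beta genes 22.65% and 21.19% occur in the other one, and summed they gave a log2 fold change of 0.34 ± 0.25 (edgeR adjusted p = 0.499). H2-Oa and H2-Ob form the DO molecule, which restrains DM and is best known from B cells. H2-Oa had 0.736, 0.671 and 1.06 CPM in the wild type and 1.03, 0.499 and 0.810 CPM in the mutant libraries (log2 fold change −0.0043 ± 0.40). H2-Ob had 2.71, 7.09 and 3.71 CPM in wild type replicates 1, 2 and 3 and 6.27, 6.36 and 8.10 CPM in mutant replicates 1, 2 and 3, the mutant libraries all above wild type replicates 1 and 3 (log2 fold change 0.60 ± 0.34, edgeR adjusted p = 0.383). H2-Ob passed when wild type replicate 2, its highest wild type library, was left out (log2 fold change 1.09, edgeR adjusted p = 0.0388), a choice that raises the fold change. Ciita, the activator of the group, had 6.99, 11.4 and 6.94 CPM in the wild type and 10.3, 11.2 and 10.5 CPM in the mutant libraries (log2 fold change 0.33 ± 0.20, edgeR adjusted p = 0.392).

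Wild type replicate 2 held the highest of the 6 values for 7 of the 10 class II genes, against 14.2% of all tested genes, and for 6 of 14 nonclassical genes. Relative to the mean of the other wild type libraries its class II values had a median ratio of 1.82 (range 0.746 to 2.21), whereas the 3 classical class I genes ranged from 0.905 to 1.03. Of the markers of B cells, which carry class II, all 8 had a ratio above 1, with a median of 2.54. For 4 of these 8 the highest value lay in wild type replicate 2. The 11 tested markers of macrophages and dendritic cells had a median ratio of 1.01 and the 10 epithelial markers 0.877.

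Summed over the 10 genes, class II stood at 176, 315 and 174 CPM in the wild type and 184, 230.1 and 187 CPM in the mutant libraries. The 8 B cell markers summed to 21.9, 65.1 and 33.8 CPM in the wild type and 53.5, 58.6 and 51.9 CPM in the mutant libraries, and the 14 macrophage and dendritic cell markers to 104, 98.7 and 93.8 CPM in the wild type and 67.2, 125 and 64.7 CPM in the mutant libraries. In B cell markers the mutant libraries and wild type replicate 2 were alike and wild type replicates 1 and 3 were low, and none of the 8 was called (median log2 fold change 0.49). Without wild type replicate 2, 4 of the 8 were called higher in the mutant libraries, at a median log2 fold change of 1.00. In that fit 106 of all 16006 tested genes were called higher. None of the 8 was called with any other library left out. Wild type replicate 2 is named here because its values were high, and leaving out a high wild type library raises the fold change. Of the 11 tested macrophage and dendritic cell markers 4 were lower (Itgax, Tyrobp, Fcer1g and Ccr2), beside 1.52% of all tested genes, some of which lymphocytes also express, and the number called was between 1 and 3 when any 1 library was left out, reaching 1 without mutant replicate 3, mutant replicate 2 or wild type replicate 2. The dendritic cell markers Xcr1, Clec9a and Flt3 had at most 7 reads in any library. The part of these cells in the class II values was not tested. Without wild type replicate 2, which held the highest value for 7 of the 10 class II genes, the class II median log2 fold change was 0.26. H2-Aa, H2-Ab1, H2-Eb1, H2-DMa and Cd74 then had fitted values above 0, and none of them was called. Leaving out the highest wild type library raises such fold changes by itself, and here that cannot be told apart from an effect of genotype.

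**Figure D5:**
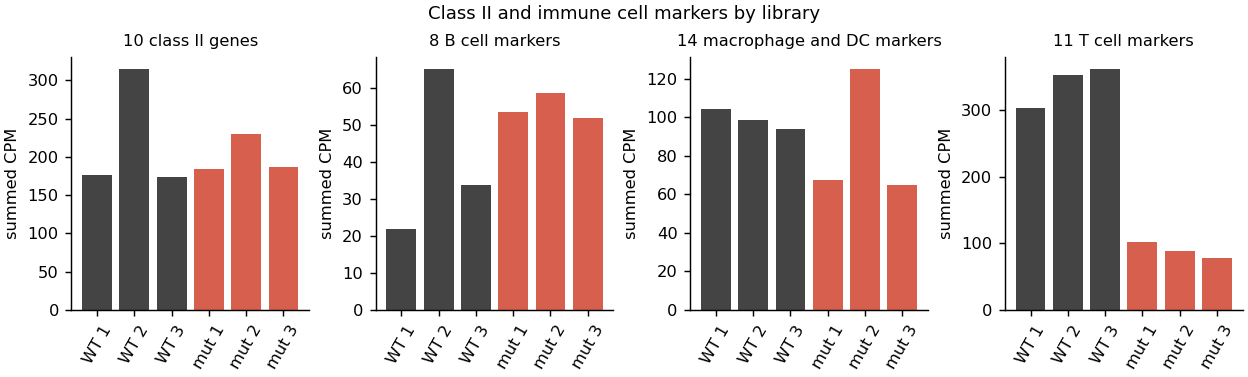
Summed CPM per library of the 10 class II genes and of markers of B cells, macrophages and dendritic cells, and T cells (bars from 0). Class II and B cell sums both peak in wild type replicate 2, and the T cell sum is lower in all 3 mutant libraries.

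Other genes of the pathway were mostly uncalled. Of 9 tested genes of interferon gamma signalling, which induces both classes, none passed (median log2 fold change −0.12), the smallest p belonging to Irf2 (log2 fold change −0.30 ± 0.10, edgeR adjusted p = 0.141) and Jak1 (log2 fold change −0.24 ± 0.09, edgeR adjusted p = 0.170). Ifng itself, under the filter, had 22, 23 and 12 reads in the wild type and 1, 1 and 3 reads in the mutant libraries, at or under the floor of 3 reads in every mutant library. In the fit with no filter on low counts its log2 fold change was −2.26 ± 0.63 (edgeR adjusted p = 0.0103), a fit that called 1493 genes in place of 430. The factors that bind class II promoters numbered 7 without a call, at a median log2 fold change of 0.02, with Rfxap at 0.27 ± 0.18 and Nfya at 0.19 ± 0.15. The constitutive proteasome and its activator had 6 genes and no call. The log2 fold change was −0.29 ± 0.12 for Psmb5, the subunit that Psmb8 replaces, and −0.23 ± 0.10 for the activator subunit Psme2.

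In the list of invariant chain proteases and class II trafficking 1 of 10 tested genes fell, beside 1.52% of all tested genes. It was Lgmn, the asparagine endopeptidase legumain, with 31.6, 33.7 and 28.5 CPM in the wild type and 21.9, 20.2 and 19.6 CPM in the mutant libraries (log2 fold change −0.60 ± 0.10, edgeR adjusted p = 0.00938). Lgmn lost its call without mutant replicate 2 (edgeR adjusted p = 0.0504). The list had 2 lower genes by DESeq2 and 4 with no filter on low counts. These fits also called more genes lower in all, 405 of 15414 by DESeq2 and 931 of 28829 with no filter. Cathepsin S (Ctss), the main protease of the invariant chain, varied widely, at 316, 171 and 230.3 CPM in the wild type and 169, 134 and 176 CPM in the mutant libraries (log2 fold change −0.58 ± 0.22, edgeR adjusted p = 0.223). None of 6 tested costimulators passed, with Cd274, which encodes the ligand PD-L1, having 24.2 ± 3.63 CPM in wild type against 15.04 ± 4.15 CPM in the mutant (log2 fold change −0.71 ± 0.20, edgeR adjusted p = 0.106) and Pvr a log2 fold change of 0.35 ± 0.14. The tools parted on Cd274 as well, with an adjusted p of 0.0203 in the authors' deposited table and 0.0202 by DESeq2.

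Among receptors of MHC molecules 7 of 10 tested genes fell and none rose, beside 1.52% and 1.04% of all tested genes, with a median log2 fold change of −1.33. Besides Cd8a, Klrd1 and Klrc1 these were, with their log2 fold changes, Cd160 (−1.46 ± 0.16), Cd8b1 (−1.61 ± 0.35), the class II receptor Lag3 (−1.54 ± 0.30) and the activating receptor Klrk1 (−0.95 ± 0.21). Cd8a and Cd160 kept their calls whichever library was left out, and the other 5 lost theirs in some of these fits, so that as few as 2 were called without wild type replicate 2 or mutant replicate 3. Cd4, not called, had 1.75, 2.05 and 2.09 CPM in the wild type and 1.31, 1.496 and 1.39 CPM in the mutant libraries (log2 fold change −0.50 ± 0.26, edgeR adjusted p = 0.325). The 7 called receptor genes are known from T cells and natural killer cells, the former being the lymphocytes whose 11 markers were all lower in the mutant libraries, and the part of that in their values was not tested.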

How the data were processed

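Total RNA libraries were stranded and depleted of ribosomal RNA, per the labels' protocols. Trimmomatic 0.39, STAR, HTSeq and DESeq2 are named, with the build GRCm38, per the submitters' processing notes. Strand setting and annotation release behind the counts were not given in the sources used here. The deposited count table holds whole-number counts per gene; its 5 summary lines (ambiguous entries 1.23% to 1.57% of a library's total; the report gives the no-feature and not unique shares by genotype) were left out. The authors' deposited comparison gives normalized signal, which equalled count times 1 factor per library in 100% of nonzero values (relative tolerance 1e-06), with log2 fold changes, a test score and p-values. From it came symbols and adjusted p-values.

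The test on the counts was run in R 4.3.3 with edgeR 4.0.16 (filterByExpr, TMM, robust quasi-likelihood F test on genotype). Tested on simulated data for this comparison (16388 genes, 200 of them changed), it called 84% of the 2-fold and 99% of the 4-fold changes, with 12 false calls. The changed genes were drawn from those with higher counts, and all genes varied by the dispersion trend. Recovery of smaller changes, or of changes in genes with few reads, was not measured. Exon lengths and positions came from GENCODE M21 (GRCm38). Intervals use the degrees of freedom of the fit; floors cover counting error only. Replicate pairs differed by 8.40 to 19.4 in chi-square per degree of freedom, so none agreed within sampling noise. Members and lists were chosen with earlier results of these data known. All 40 members are named, and of other lists up to 4 called genes or the 2 with the smallest p; H2-Ea-ps, Ifng, Ctss, Cd4, Klrd1, Klrk1, Cd8b1, the 5 other called genes of the MHC span and the marker genes were named beyond that, after their values were seen. Alternatives were DESeq2 1.42.0 and limma 3.58.1 voom, other factors and filters, a replicate block, no mitochondrial genes, and leaving out each library.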

Additional observations from a re-analysis of the deposited data

How the results depend on the processing

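H2-Q1 and H2-Q2 were both called under all but 2 of the 15 alternatives, the exceptions being the fits without mutant replicate 2, in which H2-Q1 was not called, and without mutant replicate 3, in which neither was. The 2 called antigen presentation genes became 4 with DESeq2's Wald test, which added B2m and Tapbp, and 0 to 3 with a library left out. With no filter on low counts they became 7, by the addition of B2m, Tapbp, Psmb8, Canx and Nlrc5. Over all genes the 430 calls became 655 with DESeq2 and 1493 with no filter, 174 at the fewest (mutant replicate 2 left out) and 674 at the most (wild type replicate 3 left out). Replicate numbers did not pair the samples: the correlations of same-numbered deviations were −0.126, 0.128 and −0.022. With the replicate as a block 360 genes were called, H2-Q1 and H2-Q2 among them, and receptors of MHC molecules numbered 4 in place of 7.

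Group medians kept their direction or moved within the replicate spread. Some uncalled genes near 0 changed sign, and the cause was not tested. Pdia3 was at −0.00675 with upper quartile factors and −0.00667 with no filter, H2-Eb1 at 0.00148 with the replicate block, and H2-Oa at 0.0152 with limma voom. The summed reads of H2-Q6 and H2-Q7 gave −0.0796, whereas H2-Q6 by itself was above 0 in each of the 15 alternatives. With 1 library left out the log2 fold change ran from −0.53 to 0.0356 for H2-Aa, −0.37 to 0.0648 for H2-Ab1, −0.29 to 0.32 for H2-Eb1, −0.34 to 0.21 for H2-DMa, −0.32 to 0.22 for H2-Oa and −0.43 to 0.11 for Cd74. Among class I and loading genes the range was −0.19 to 0.01003 for H2-T22, −0.12 to 0.0180 for H2-T23, −0.0914 to 0.59 for H2-Q10, −0.0998 to 0.18 for H2-M3, −0.13 to 0.11 for Cd1d1, −0.12 to 0.0554 for Tap1 and −0.16 to 0.13 for Pdia3. The floor of 3 reads lay higher in the mutant libraries, which limits what can be said of genes with few reads such as H2-M2.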
